A study of Mus musculus with 13 samples.

Results

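Class II molecules of the major histocompatibility complex (MHC) present peptides to CD4+ T cells. Their genes were followed here in 13 UV-initiated mouse melanomas through 5 probe sets of 4 genes, chosen by identifier among the 22690 probe sets of the deposited table. The probe sets were Cd74 (1425519_a_at), H2-Aa (1435290_x_at), H2-Ab1 (1450648_s_at and 1451721_a_at) and H2-Eb1 (1417025_at). The rule named 6 identifiers, and the one for a second H2-Aa probe set was not analysed here. The gene names came with the rule, as the deposited table gives probe sets without genes. In the naming of these arrays, _s_at and _x_at mark probe sets whose probes can match more than 1 transcript or gene, so the H2-Aa probe set and 1 of the H2-Ab1 probe sets may also read related genes. H2 genes are highly polymorphic between mouse strains, and the probes were not checked against the alleles of these mice. No filter on low values was applied, so all 5 probe sets entered every test.

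Each array held the RNA of 1 cutaneous melanoma from a mouse deficient in ARF or INK4a, both products of the Cdkn2a locus. The ARF-deficient tumors comprised 1 null (tumor 10) and 5 heterozygous tumors (tumors 12, 13, 14, 8 and 9), and the INK4a-deficient tumors comprised 4 null (1.2, 2.2, 3 and 7.2) and 3 heterozygous tumors (15, 5.2 and 6.2). All mice carried an HGF/SF transgene under a metallothionein promoter, received 1 UV dose as newborns, and had a mixed background that was mostly FVB/N with some C57BL/6, so no tumor was free of the transgene or of UV. For the 6 tumors of the ARF groups, titles and genotype entries disagree, the titles giving Ink4a, and the groups follow the genotype entries. Nothing in the labels ties a tumor to a mouse, and p-values therefore cover only the spread among the tumors measured. Values were logarithms, read here as log2 because the base is not stated, and were centred so that every probe set has a median of 0 over the 13 tumors. A value therefore says how far a tumor lay from the median tumor, and no probe set has a level that can be set against another's. The label melanoma could not be checked against melanocyte markers, because genes of other probe sets are not named in the tables used here.

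A class II molecule is a pair of an alpha and a beta chain. H2-Aa and H2-Ab1 encode the alpha and beta chains of the mouse I-A molecule, and H2-Eb1 encodes the beta chain of I-E. Cd74 encodes the invariant chain, which binds new class II molecules in the endoplasmic reticulum, fills their peptide groove and guides them to the endosomes where peptides are loaded. Dendritic cells, macrophages and B cells make these genes constitutively, and many other cells make them after exposure to interferon gamma. The promoters share short elements called the X and Y boxes, on which RFX, CREB-family and NF-Y proteins assemble, and the coactivator CIITA acts through this assembly.

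H2-Aa and H2-Eb1 shared the direction but not the size of their variation across the tumors. Whether promoter letters bear on this was not tested. Cd74 was left out by choice, and H2-Ab1 had no promoter entry. The stretches just upstream of the start of H2-Aa and H2-Eb1 are shown. They are taken from RefSeq (build GRCm38.p6, the C57BL/6J reference), where H2-Aa lies on the minus strand at chr17:34287824-34287933 and H2-Eb1 on the plus strand at chr17:34305757-34305866, both reading 5′ to 3′ up to the base before the annotated start. Capitals mark matches to GCAACT, letters from the X box, to CTGATTGG, the core of the Y box, and to TGACGTCA, the cyclic AMP response element.
H2-Aa: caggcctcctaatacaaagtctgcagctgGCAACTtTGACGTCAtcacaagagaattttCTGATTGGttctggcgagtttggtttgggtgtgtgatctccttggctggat
H2-Eb1: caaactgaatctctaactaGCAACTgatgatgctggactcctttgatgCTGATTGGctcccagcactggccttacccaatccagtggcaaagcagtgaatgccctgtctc

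CTGATTGG began 51 bases before the start of H2-Aa and 62 bases before that of H2-Eb1, and GCAACT began 81 and 91 bases before them. The distance between the first letters of these motifs was 30 bases in H2-Aa and 29 bases in H2-Eb1. TGACGTCA, a palindrome, was matched in H2-Aa, 74 bases before the start, and these letters were not in the H2-Eb1 window. The motifs did not overlap one another. Both strands of 250 upstream bases were searched in all 32851 promoters of 27025 genes in the RefSeq table. CTGATTGG occurred in 3.83% of them, GCAACT in 9.01% and TGACGTCA in 1.55%. GCAACT followed by CTGATTGG on 1 strand, with first letters 20 to 40 bases apart, occurred in 7 promoters (0.0213%), those of H2-Aa, H2-Eb1, H2-Eb2, Gstz1, Mrps9, Narf and Tigd3. The RefSeq table held no promoter of H2-Ab1, so that gene was not searched and its absence from these 7 says nothing about it. In the RefSeq order of genes on chromosome 17, H2-Ab1, H2-Aa and H2-Eb1 stand next to one another, between H2-Ob and H2-Eb2. These matches describe the letters of a reference strain and not the sequence of the tumors.

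H2-Aa, the I-A alpha chain, varied most among the 5 probe sets. Its log2 value was -1.24 in the ARF null tumor and 1.83, 0.00, -0.11, -0.06 and 1.39 in the ARF heterozygous tumors 12, 13, 14, 8 and 9. It was -2.62, -1.47, 0.36 and 0.06 in the INK4a null tumors 1.2, 2.2, 3 and 7.2, and 0.92, -1.38 and 0.95 in the INK4a heterozygous tumors 15, 5.2 and 6.2. Each deficiency thus held tumors well above and well below the median tumor, and the groups overlapped.

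For the I-A beta chain, H2-Ab1, the probe set 1450648_s_at had a log2 value of -1.11 in the ARF null tumor and of 1.48, -0.27, -0.03, 0.10 and 1.55 in the ARF heterozygous tumors 12, 13, 14, 8 and 9. It had -2.15, -1.66, 0.30 and 0.00 in the INK4a null tumors 1.2, 2.2, 3 and 7.2, and 1.28, -0.90 and 1.59 in the INK4a heterozygous tumors 15, 5.2 and 6.2. The same 4 tumors as for H2-Aa were high, tumors 12 and 9 of the ARF heterozygous group and tumors 15 and 6.2 of the INK4a heterozygous group. The second probe set, 1451721_a_at, had -1.16 in the ARF null tumor and 1.07, -0.95, 0.00, 0.03 and 1.29 in the ARF heterozygous tumors. It had -2.09, -1.46, 0.21 and -0.05 in the INK4a null tumors and 1.59, -1.03 and 1.58 in the INK4a heterozygous tumors, in the same tumor order. The H2-Ab1 probe sets differed by a median of 0.0842 on the log2 scale, and their largest gap was 0.68, in tumor 13, where 1451721_a_at was lower.

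Cd74, the invariant chain, had a log2 value of -1.10 in the ARF null tumor and of 1.39, -0.65, 0.00, 0.24 and 1.11 in the ARF heterozygous tumors 12, 13, 14, 8 and 9. It had -2.19, -1.23, -0.44 and 0.37 in the INK4a null tumors 1.2, 2.2, 3 and 7.2, and 1.21, -0.88 and 1.32 in the INK4a heterozygous tumors 15, 5.2 and 6.2. Its high and low tumors were those of the I-A chains, although tumors 13 and 3 lay lower relative to the median tumor in Cd74 than in H2-Aa.

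H2-Eb1, the I-E beta chain, moved within a much narrower range. Its log2 value was -0.03 in the ARF null tumor and 0.24, 0.00, -0.21, -0.08 and 0.41 in the ARF heterozygous tumors 12, 13, 14, 8 and 9. It was -0.24, -0.16, 0.25 and -0.32 in the INK4a null tumors 1.2, 2.2, 3 and 7.2, and 0.43, 0.00 and 0.41 in the INK4a heterozygous tumors 15, 5.2 and 6.2. Tumors 15, 9 and 6.2 were again the highest, but tumor 7.2 and not tumor 1.2 was the lowest.

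**Figure D1:**
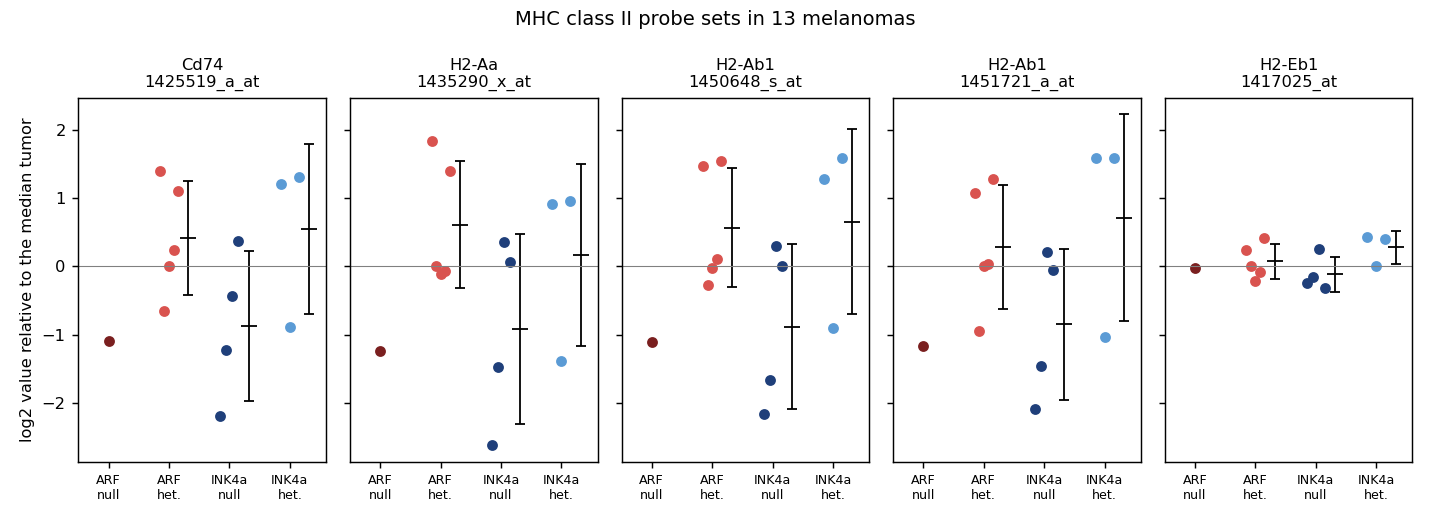
Log2 values of the 5 class II probe sets relative to the median tumor (vertical axis), 1 point per tumor in ARF null, ARF heterozygous, INK4a null and INK4a heterozygous tumors (horizontal axis). Black marks are group means with SD for groups with over 1 tumor; the groups overlap in every panel, and H2-Eb1 stays between -0.32 and 0.43.

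In Cd74, H2-Aa and both H2-Ab1 probe sets, tumors 15, 6.2, 12 and 9 held the 4 highest places, tumor 1.2 was the lowest and tumor 2.2 the next lowest. The highest tumor exceeded the lowest 12.0-fold in Cd74, 21.9-fold in H2-Aa, and 13.4-fold and 12.9-fold in the H2-Ab1 probe sets. The same range was 1.68-fold in H2-Eb1 and had a median of 1.90-fold over all 22626 probe sets tested. The SD over the 13 tumors was 1.13 for Cd74, 1.27 for H2-Aa, and 1.24 and 1.21 for H2-Ab1, placing them at percentiles 96.6, 97.4, 97.2 and 97.1 of all probe sets. H2-Eb1 had an SD of 0.264, at percentile 48.8. In a bulk tumor, fewer class II-bearing cells and less class II RNA per cell cannot be told apart.

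The first comparison set ARF-deficient against INK4a-deficient melanomas, the contrast for which the arrays were collected. None of the 5 probe sets differed by more than the spread between tumors. H2-Aa had the largest difference, with a mean of 0.30 ± 1.12 in ARF-deficient tumors (SD, n = 6) and -0.45 ± 1.38 in INK4a-deficient tumors (SD, n = 7). The difference of 0.75 on the log2 scale had an SE of 0.65 and a 95% interval of -0.66 to 2.17 (limma, adjusted p = 0.897; exact permutation p = 0.302, two-sided). Cd74 averaged 0.17 ± 0.97 in ARF-deficient and -0.26 ± 1.30 in INK4a-deficient tumors, a difference of 0.43 (interval -0.86 to 1.72; limma adjusted p = 0.928).

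The H2-Ab1 probe set 1450648_s_at averaged 0.29 ± 1.04 in ARF-deficient and -0.22 ± 1.42 in INK4a-deficient tumors, a difference of 0.51 (interval -0.90 to 1.91; limma adjusted p = 0.927). The other, 1451721_a_at, differed by 0.23 (interval -1.18 to 1.63; limma adjusted p = 0.970). H2-Eb1 averaged 0.06 ± 0.23 in ARF-deficient and 0.05 ± 0.31 in INK4a-deficient tumors, and its interval of -0.32 to 0.33 was the narrowest of the 5 (limma adjusted p = 0.999). The intervals of the other probe sets leave room for differences of over 1 on the log2 scale in the direction of higher values in ARF-deficient tumors. That of 1451721_a_at leaves as much room for lower values in them. Across the array, 0% of the 22626 probe sets passed the adjusted threshold of 0.05 while 4.93% had an unadjusted limma p under 0.05 and 3.46% an unadjusted exact Mann-Whitney p under 0.05; neither count held a class II probe set. The groups did not overlap in 0.11% of probe sets, and overlapped in all 5 class II probe sets. With zygosity in the fit the differences turned to -0.16 for Cd74, -0.13 and -0.39 for H2-Ab1 and -0.12 for H2-Eb1, while H2-Aa kept its direction at 0.22; 1 of 6 ARF-deficient and 4 of 7 INK4a-deficient tumors were null. The smallest p the exact test can give with 6 and 7 tumors is 0.000583.

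The deficiency accounted for 3.88% of the variance of Cd74 over the 13 tumors, for 9.43% of that of H2-Aa, and for 4.55% and 0.929% of that of the H2-Ab1 probe sets, against a median of 5.03% over all probe sets. For H2-Eb1 the share was 0.00423%. The 4 groups of deficiency and zygosity accounted for 32.8% to 39.3% of the variance of the 5 probe sets, with a median of 24.6% over all probe sets.

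The next comparison set INK4a null against INK4a heterozygous tumors. All 5 probe sets had lower means in the null tumors, and none passed the threshold. Cd74 averaged -0.87 ± 1.09 in INK4a null (SD, n = 4) and 0.55 ± 1.24 in INK4a heterozygous tumors (SD, n = 3), a difference of -1.42, or 0.373-fold, with an SE of 0.71 and an interval of -2.99 to 0.15 (limma, adjusted p = 0.427; exact permutation p = 0.171). H2-Ab1 differed by -1.53 in 1450648_s_at, from means of -0.88 ± 1.21 in null and 0.66 ± 1.36 in heterozygous tumors, and by -1.56 in 1451721_a_at (limma adjusted p = 0.430 for each).

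H2-Aa averaged -0.92 ± 1.39 in INK4a null and 0.17 ± 1.34 in INK4a heterozygous tumors, a difference of -1.08 (interval -2.91 to 0.74; limma adjusted p = 0.639). H2-Eb1 averaged -0.12 ± 0.25 in null and 0.28 ± 0.24 in heterozygous tumors, a difference of -0.39 (interval -0.80 to 0.02; limma adjusted p = 0.399; exact permutation p = 0.114, where 0.0286 is the smallest possible). The groups overlapped in all 5 probe sets: tumor 5.2 lay low among the heterozygous tumors, and tumors 3 and 7.2 lay above the other null tumors in Cd74, H2-Aa and H2-Ab1. Over the array, 0.0398% of probe sets passed the adjusted threshold, 13.1% had an unadjusted limma p under 0.05 (4.31% lower in null tumors), 0.301% an unadjusted exact Mann-Whitney p under 0.05, and 11.2% did not overlap between these groups. No class II probe set was among any of these. For the Mann-Whitney count this was fixed in advance, as with 4 against 3 tumors and no tied values that test cannot give p under 0.05. In a fit that weighted arrays by their residual spread, 4 of the 5 passed, H2-Aa being the exception, while 3239 probe sets passed over the array; that fit gave tumor 15 a weight of 3.75 and tumor 5.2 a weight of 0.435. The 3′/5′ log2 ratio of the beta-actin controls, a sign of RNA quality, was -0.54 to 0.94 in INK4a null tumors and -0.46 to -0.37 in INK4a heterozygous tumors. It was taken from centred values, so it compares tumors and its sign does not say which end gave more signal. With this ratio in the fit the differences lay between -2.02 (H2-Ab1 1450648_s_at) and -0.48 (H2-Eb1), with limma adjusted p-values of 0.369 to 0.425.

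Only 1 tumor was ARF null, so the ARF zygosity effect has no spread of its own. Relative to the mean of the 5 ARF heterozygous tumors, its log2 difference was -1.52 for Cd74, -1.85 for H2-Aa, -1.68 and -1.45 for the H2-Ab1 probe sets and -0.10 for H2-Eb1. The difference between this effect and that of INK4a zygosity was estimated at -0.09 for Cd74, -0.76 for H2-Aa, -0.14 and 0.11 for H2-Ab1 and 0.29 for H2-Eb1. Its SE, which assumes that the lone tumor varies like the other groups, was 1.25 to 1.45 for the first 4 and 0.33 for H2-Eb1, so these estimates do not show whether the effects are alike.

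The last comparison kept to heterozygous tumors and shares the INK4a heterozygous arrays with the one on INK4a zygosity. Cd74 averaged 0.42 ± 0.83 in ARF heterozygous (SD, n = 5) and 0.55 ± 1.24 in INK4a heterozygous tumors (SD, n = 3), a difference of -0.13 with an interval of -1.63 to 1.37 (limma, adjusted p = 0.959). H2-Aa differed by 0.44 (interval -1.30 to 2.19), H2-Ab1 by -0.09 and -0.43 in its 2 probe sets, and H2-Eb1 by -0.21 (interval -0.60 to 0.19), with limma adjusted p-values from 0.664 to 0.976 for these 4. With the beta-actin ratio in the fit the differences were -0.74 for Cd74, -0.57 for H2-Aa, -0.86 and -0.95 for H2-Ab1 and -0.34 for H2-Eb1, all further from 0 and that of H2-Aa turned in direction, with limma adjusted p-values of 0.815 to 0.922. None was called, against 0.00442% of all probe sets, and none had an unadjusted limma p under 0.05, against 13.1%. The groups overlapped in all 5, whereas 7.85% of all probe sets did not overlap. The same share had an exact Mann-Whitney p under 0.05, which is not a separate result. With 5 against 3 tumors and no tied values, such a p needs complete separation.

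**Figure D2:**
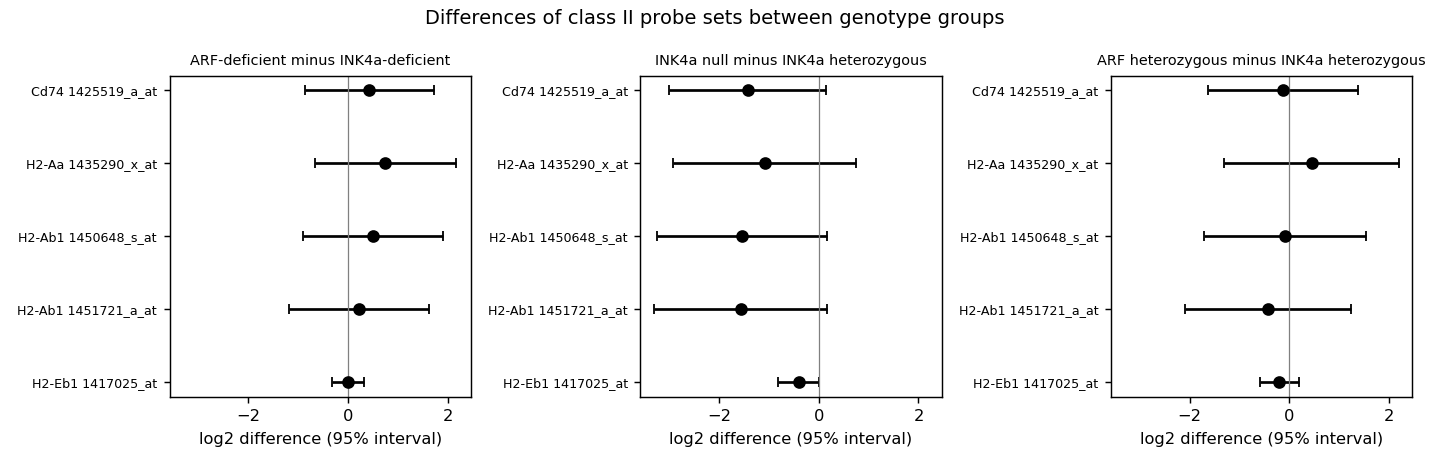
Log2 differences of the 5 class II probe sets (horizontal axis, points with 95% intervals from limma) for ARF-deficient minus INK4a-deficient, INK4a null minus INK4a heterozygous, and ARF heterozygous minus INK4a heterozygous tumors. Every interval crosses 0, and the interval of H2-Eb1 is the narrowest in each panel.

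While the genotype groups overlapped, the class II genes followed one another from tumor to tumor. The 5 pairs between different genes among Cd74, H2-Aa and H2-Ab1 had Pearson's r of 0.926 to 0.971 and Spearman's rho of 0.896 to 0.945 over 13 tumors. The pair of H2-Ab1 probe sets, which read the same gene, had r of 0.979 and rho of 0.962. After Benjamini-Hochberg adjustment over the 10 pairs computed, permutation p-values for r between these genes were at most 3.33e-05, close to 1e-05, the smallest unadjusted p that 100000 permutations can give, and those for rho at most 0.000233. Leaving out the 2 tumors farthest from the median, chosen on the first probe set of each pair and here tumors 1.2 and 12, gave r of 0.899 to 0.968 between these genes. The range was 0.906 to 0.982 within the ARF-deficient and 0.947 to 0.973 within the INK4a-deficient tumors, so the relation held inside each deficiency.

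H2-Eb1 followed the others less closely. Its 4 pairs had r of 0.667 to 0.780 (adjusted permutation p of 0.00296 to 0.0142) and rho of 0.553 to 0.762 (adjusted permutation p of 0.0048 to 0.0530). Without the 2 tumors farthest from the median in the other probe set of the pair, r was 0.598 to 0.743. Within the ARF-deficient tumors r was 0.678 to 0.781, and within the INK4a-deficient tumors 0.679 to 0.818. For a change of 1 in the mean of the other 3 genes on the log2 scale, H2-Eb1 changed by 0.162, whereas each other probe set had a slope of 0.89 to 1.04 on the mean of the remaining genes, its own gene and H2-Eb1 left out. Whether this probe set is dim could not be read from centred values. In the C57BL/6J annotation H2-Ea, the partner chain of H2-Eb1 in I-E, is a transcribed pseudogene. The background of these mice was mostly FVB/N, and whether this annotation holds for their tumors was not tested.

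**Figure D3:**
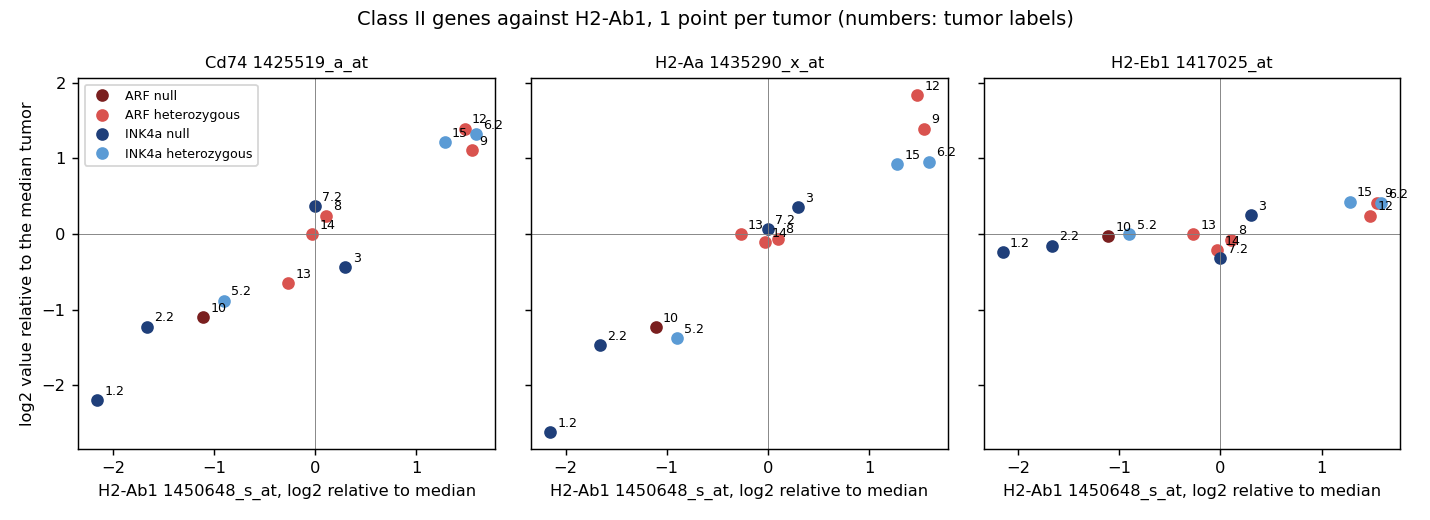
Log2 values of Cd74, H2-Aa and H2-Eb1 (vertical axes) against H2-Ab1 1450648_s_at (horizontal axis), each relative to the median tumor, 1 point per tumor with its label number, colored by group. Cd74 and H2-Aa climb with H2-Ab1 over the whole range, whereas H2-Eb1 stays within -0.32 and 0.43.

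The class II pattern was compared with that of every other probe set, using the mean of the 4 genes as the class II mean. Of 22621 other probe sets, 30 (0.133%) had r of at least 0.9 with it over the 13 tumors, and 27 of these had r of at least 0.8 within each deficiency. At r of at least 0.8 there were 428 (1.89%). In the opposite direction, 5 had r of -0.9 or lower. The probe sets most alike were 1452431_s_at (r = 0.988, rho = 0.984, values from -2.30 to 1.66) and 1425477_x_at (r = 0.970, rho = 0.912), and those least alike were 1455039_a_at (r = -0.942) and 1415966_a_at (r = -0.928), none of which is paired with a gene in the tables used here. Those most alike may therefore be further probe sets of the same class II genes.

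Each member was also set against the mean of the other class II genes, H2-Eb1 included, so that its own values did not enter the mean. Cd74 had r of 0.960, H2-Aa 0.954, and the H2-Ab1 probe sets 0.990 and 0.968. Only 4, 4, 0 and 1 of the 22621 other probe sets came closer to the same means. For H2-Eb1, with r of 0.731, 801 of them (3.54%) came closer. The other probe sets carry no gene names, so those that came closer may include further probe sets of these genes.

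**Figure D4:**
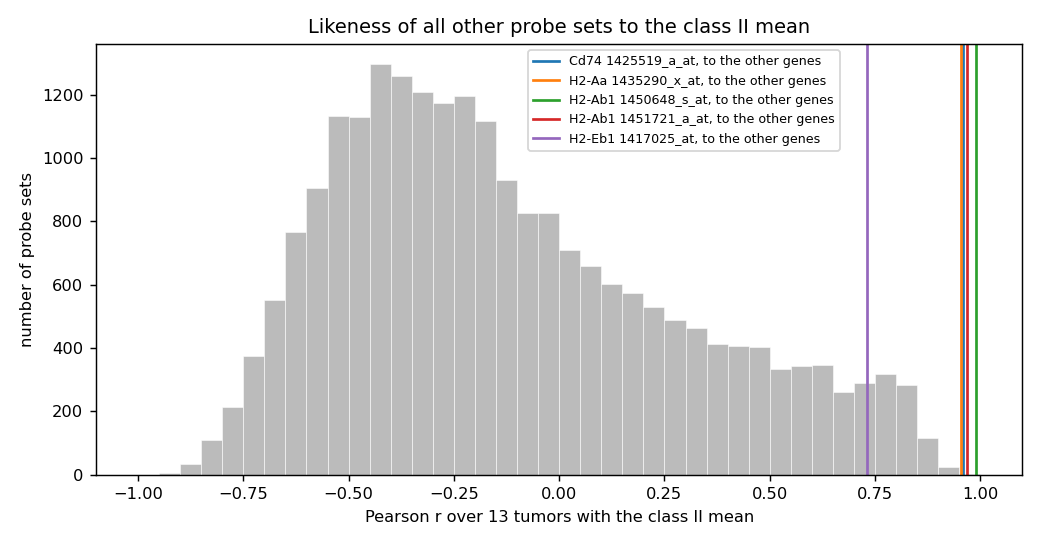
Number of the 22621 other probe sets (vertical axis) by Pearson r with the class II mean over 13 tumors (horizontal axis). Vertical lines give each member's r with the mean of the other class II genes; Cd74, H2-Aa and H2-Ab1 lie between 0.954 and 0.990 and H2-Eb1 at 0.731.

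The class II genes moved with the main axis of variation of the whole array. The first principal component, over all tested probe sets, held 41.5% of the variance, and the 5 probe sets correlated with it at r of 0.787 to 0.893 and rho of 0.743 to 0.929 (permutation p adjusted over 15 relations, 0.00075 to 0.00621 for r and 0.00075 to 0.0142 for rho), with the sign of the component set so that it rises with them. Without tumors 12 and 1.2, the 2 farthest from the median along the component, r was 0.679 to 0.851. It was 0.628 to 0.840 within the ARF-deficient and 0.835 to 0.937 within the INK4a-deficient tumors. How many of all probe sets reach such an r was not computed, so the relation is not shown to be particular to class II genes. Over all probe sets, the high tumors 15 and 6.2, both INK4a heterozygous, had the highest correlation of the 78 pairs of arrays (r = 0.717), and the high tumors 12 and 9, both ARF heterozygous, the next (r = 0.628). The 4 pairs that join a high tumor of the ARF group to one of the INK4a group had r of 0.255 to 0.408 and ranked between 10 and 19. The low tumors 5.2 and 1.2 were the third pair (r = 0.597), and 1.2 and 2.2 the fourth (r = 0.565).

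With the beta-actin ratio the 5 probe sets had r of 0.0614 to 0.461 (adjusted permutation p of 0.286 to 0.840) over all 13 tumors. This r was 0.230 to 0.606 within the ARF-deficient and -0.39 to 0.26 within the INK4a-deficient tumors. Without tumors 13 and 9, the 2 farthest from the median in the ratio itself, it was -0.13 to 0.45. It was 0.394 to 0.691 without tumors 15 and 6.2, a choice made after seeing the data. H2-Aa had the highest of these last values and H2-Eb1 the lowest. With the second component, 16.6% of the variance, r was -0.07 to 0.35. Markers of dendritic cells, macrophages, B cells and T cells could not be read from probe sets without gene names, so the part of immune cells in the class II values was not tested.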

How the data were processed

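Total RNA of 13 melanomas was hybridized to 1-color Affymetrix mouse expression arrays. The authors deposited log2-type values (base not stated, read as log2) of 22690 probe sets, made in GeneSpringGX; the sources used here do not say how probe sets were summarized and arrays normalized. All 22690 rows have a median of 0 over the 13 arrays, and array medians lay between -0.05 and 0.05. The array named in the methods carries more probe sets than this table. The authors' list of changed genes holds their own comparison and was not used. Depth does not apply to arrays, whose number limits the precision.

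The 64 control probe sets were left out, which left 22626. Group differences came from limma (version 3.58.1, R 4.3.3; lmFit, then eBayes without a trend, two-sided, Benjamini-Hochberg adjustment over all 22626, threshold 0.05), in a fit of 2 deficiencies and a fit of 4 groups, and by exact permutation. The fit was tested on simulated data. Correlations have p-values from 100000 permutations. Sequences and gene order come from RefSeq. The members, the gene lists and the rule for named genes were chosen with earlier results of these data known. That rule called for more named probe sets and could not be applied in full without gene names. The members and the 2 probe sets most and least alike are given instead. The lists of pathway and cell type genes could not be applied without a table that pairs probe sets with genes. Alternatives covered scaling, variance model, array weights, covariates, the Mann-Whitney test of the methods and leaving out tumors.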

Additional observations from a re-analysis of the deposited data

How the results depend on the processing

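For ARF-deficient minus INK4a-deficient tumors no probe set passed under any alternative, leaving out each tumor included. The H2-Eb1 difference, close to 0, turned negative after quantile normalization (-0.00378), centring arrays on their median (-0.00575) and under a beta-actin covariate (-0.0107). With zygosity as a covariate the differences were -0.16 for Cd74, -0.13 and -0.39 for H2-Ab1 and -0.12 for H2-Eb1, with H2-Aa at 0.22. Among heterozygous tumors they were -0.13 for Cd74, -0.0892 and -0.43 for H2-Ab1 and -0.21 for H2-Eb1, with H2-Aa at 0.44. Among tumors without a decimal ending in their number they were -0.22 for Cd74, -0.34 for H2-Aa, -0.50 and -0.86 for H2-Ab1 and -0.28 for H2-Eb1. Only INK4a-deficient tumors have decimal endings, so this subset set all ARF-deficient tumors against tumors 15 and 3 alone. Leaving out each tumor gave 0.11 to 0.69 for Cd74, 0.39 to 1.06 for H2-Aa, 0.19 to 0.81 and -0.0937 to 0.52 for H2-Ab1, and -0.0683 to 0.0657 for H2-Eb1.

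For INK4a null minus heterozygous tumors, 9 probe sets passed, against 1 after quantile normalization, 14 with a variance trend and 3239 with array weights. None passed with the beta-actin covariate or with INK4a arrays alone. The exact Mann-Whitney test also gave 0, but with 4 against 3 tumors and no tied values its p cannot fall under 0.05 even unadjusted. Leaving out each tumor gave 0 to 423, the highest without tumor 5.2. With array weights the differences were -1.88 for Cd74 (limma adjusted p = 0.0414), -2.15 and -2.30 for H2-Ab1 (0.0364 and 0.0307) and -0.53 for H2-Eb1 (0.0390). Leaving out each tumor gave -2.14 to -0.98 for Cd74, -1.85 to -0.52 for H2-Aa, -2.31 to -1.07 and -2.43 to -1.12 for H2-Ab1 and -0.53 to -0.32 for H2-Eb1, none called, the lowest limma adjusted p being 0.111.

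For ARF heterozygous minus INK4a heterozygous tumors, 1 probe set passed, against 0 after quantile normalization, with the covariate or with heterozygous arrays alone. The count was 2 after median centring, 1820 with array weights and 0 to 104 leaving out each tumor, the highest without tumor 5.2. The Mann-Whitney test gave 0, but passing its adjustment with 5 against 3 tumors would take far more separated probe sets than the 7.85% found. The differences with the covariate were -0.74 for Cd74, -0.57 for H2-Aa, -0.86 and -0.95 for H2-Ab1 and -0.34 for H2-Eb1. Leaving out each tumor gave -0.84 to 0.25 for Cd74, -0.33 to 0.84 for H2-Aa, -0.87 to 0.38 and -1.30 to 0.0136 for H2-Ab1, and -0.34 to -0.13 for H2-Eb1.

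The median r of the 6 pairs among Cd74, H2-Aa and H2-Ab1, 1 of them within H2-Ab1, was 0.967, and the median rho 0.926. For the 4 pairs with H2-Eb1 the median r of 0.744 became 0.686 without the 2 farthest tumors and 0.654 without tumors 15 and 6.2. Spearman's rho and the last of these were chosen after seeing the data. The cause of these changes was not tested. No paired analysis was possible because tumor numbers in the labels are not shared between groups. A filter on dim probe sets, a background correction and a batch block were not run, since the values carry no levels, no scanner signals and no batch.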
